A study of Homo sapiens with 17 samples.

Results

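H3K27ac and POLIIS2P were compared at genes in control H1 cells. H1 is an established human pluripotent stem cell line. Both were mapped by CUT&Tag, which uses antibodies to bring a transposase to their targets, so that sequencing adapters are inserted into the nearby DNA. The comparison used 4 of the 17 libraries of the series, with 2 repeats for each antibody. They were chosen by the antibody in the peak names inside each list and by the control shRNA. All 4 came from cells that had received virus carrying an shRNA against luciferase (shLUC) and had then been selected with puromycin. The other libraries covered cells with shHNRNPU#1 or shHNRNPU#2 (an shRNA against HNRNPU, with the same selection), the shLUC pair with H3K4me1 in its peak names, and HNRNPU in untransfected cells. The labels mention no single-cell clone. The labels do not say that repeats came from separate cultures. P-values over libraries therefore measure the spread between these samples, which may be technical.

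H3K27ac, acetylation of lysine 27 on histone H3, marks active promoters and active enhancers. The other target, labelled POLIIS2P, reads as RNA polymerase II phosphorylated at serine 2 of its C-terminal repeats. That form is associated with productive elongation and is best known from gene bodies and from the region past the polyadenylation site. A promoter with the acetyl mark and a gene body with elongating polymerase are thus separate readouts of a transcribed gene.

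The titles and the peak names disagreed for the 4 shLUC histone libraries. The pair used here as H3K27ac carries H3K27ac in its peak names but H3K4me1 in its titles, and is called H3K27ac-named below. The pair titled H3K27ac shLUC carries H3K4me1 in its peak names and is called H3K4me1-named. H3K27ac-named repeat 1 shared 46.4% to 51.8% of its strongest summits with the 4 H3K27ac libraries of shHNRNPU cells and 20.9% to 22.9% with the 4 H3K4me1 libraries of those cells. For H3K27ac-named repeat 2 the ranges were 48.9% to 55.6% and 22.3% to 24.3%. H3K4me1-named repeat 1 shared 18.2% to 24.7% with the same H3K27ac libraries and 68.6% to 73.1% with the same H3K4me1 libraries. For H3K4me1-named repeat 2 the ranges were 19.1% to 25.8% and 68.2% to 73.5%. Each pair thus shared more with the libraries of the antibody in its peak names than with those of the antibody in its titles. Neither H3K4me1 nor POLIIS2P is among the primary antibodies listed in the protocol, whereas H3K27ac is. The counts of acetylated ends, the HNRNPU shares, the gene lists and the gene-body shares are given also with the pair titled H3K27ac and with the 4 H3K27ac libraries of shHNRNPU cells.

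The deposited lists held 62449 and 90914 summits for H3K27ac-named repeats 1 and 2, and 87456 and 85517 for POLIIS2P repeats 1 and 2. A summit is the base of highest signal in a called peak, and its score was read as −log10 of a p-value or q-value. Read depth is unknown. The 20000 highest-scoring summits of each list, called the strongest summits, were used so that lists of unequal length could be compared. The score at that limit was 6.16 and 9.40 for H3K27ac-named and 9.57 and 9.36 for POLIIS2P. In H3K27ac-named repeat 1, 1423 summits shared the score at the limit and 30 of them lay inside it. Because scores are not comparable between lists, a summit is described by its percentile, the rank of its score within its own list, where 100 is the highest. The limit lay at percentile 66.9 and 78.0 for H3K27ac-named and 77.1 and 76.6 for POLIIS2P. The first summit outside the limit scored 6.16, 9.40, 9.57 and 9.35 in the same order.

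The cells were checked against marker genes. Of 12 markers of pluripotent cells, 11 were found by symbol, 2 had an acetylated end (L1TD1 and DNMT3B, both with POLIIS2P) and 4 had an end with POLIIS2P (these 2, LIN28A and DPPA4). POU5F1, SOX2 and NANOG were called for neither antibody. POU5F1 had H3K27ac-named at percentiles 70.2 and 54.0 at 1 end, and SOX2 had no deposited summit of either antibody within 1000 bp of its ends. Of 16 genes that pluripotent cells do not express, such as ALB, INS, HBB and MYH6, 0 had either. In bulk chromatin, a mark in fewer cells and a weaker mark in every cell cannot be told apart.

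POLIIS2P lay at gene ends more than H3K27ac did. Gene ends were the outermost bases of 20033 protein-coding genes of the RefSeq table for GRCh38.p14, 40066 ends in all. A strongest summit within 1000 bp of an end was found for 23.2% and 25.6% of the H3K27ac-named summits and for 36.3% and 35.8% of the POLIIS2P summits. The means were 24.4% ± 1.68 (SD, n = 2) and 36.1% ± 0.336 (SD, n = 2), a difference of -11.7 percentage points. Neither H3K27ac-named library reached either POLIIS2P library. The exact two-sided permutation test gave p = 0.333, which is the smallest that 2 libraries against 2 allow. Using the 4 H3K27ac libraries of shHNRNPU cells in place of the pair the difference was -14.1 points, and with the pair titled H3K27ac it was -28.9 points. H3K27ac-named summits were intergenic in 27.1% and 26.7% of cases, and POLIIS2P summits in 17.7% and 17.8%. Gene bodies held 49.7% and 47.7% of the H3K27ac-named summits and 46.0% and 46.4% of the POLIIS2P summits, so most of the strongest summits of either antibody lay away from gene ends.

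The lists of both antibodies overlapped in part. Counting summits within 250 bp as shared, the 4 pairs of an H3K27ac-named and a POLIIS2P list shared 28.1% to 31.5% of their strongest summits, with a mean of 29.7%. The H3K27ac-named repeats shared 55.2% with each other and the POLIIS2P repeats 71.5%. At gene ends that carried both, the median distance between the H3K27ac-named and the POLIIS2P summit was 88 to 95 bp in the 4 pairs. The median was 60 bp between H3K27ac-named repeats and 44 bp between POLIIS2P repeats.

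The profile around genes showed where each antibody lay. Strand was known for 15841 genes, and for these the upstream end is called the gene start and the other the gene finish. At starts, the median H3K27ac-named summit lay 22 bp downstream of the annotated start in both repeats. The median POLIIS2P summit lay upstream of it, at -59 bp and -58 bp. At finishes, 65.1% and 64.9% of the POLIIS2P summits within 1000 bp lay downstream of the annotated end, with medians of 311 and 310 bp past it. Both repeats had their highest 100 bp bin 350 bp past the finish. These positions were not particular to POLIIS2P. HNRNPU summits of untransfected cells had medians of -59 and -57 bp at starts and of 300 and 306 bp past finishes. Their highest bin at finishes was also at 350 bp, from 586 and 662 summits against 2091 and 2078 for POLIIS2P. The median H3K4me1-named summit at starts lay at -72 and -71 bp.

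**Figure D1:**
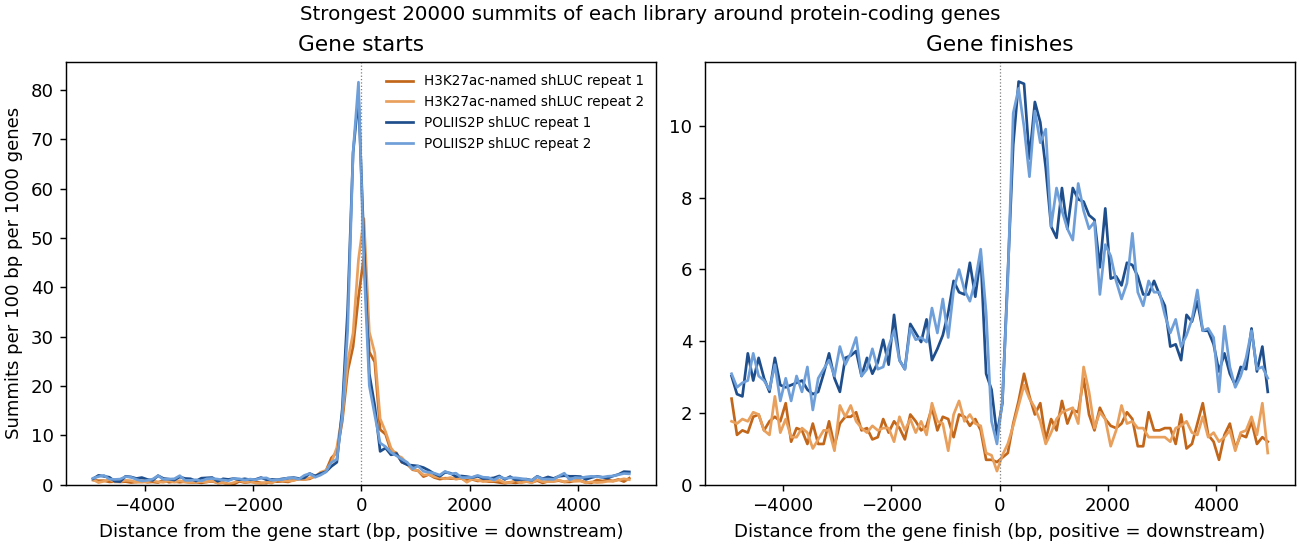
Summits among the strongest 20000 of each list per 100 bp bin and per 1000 genes (vertical axis, separate scale in each panel) against distance from the gene start or the gene finish in bp (horizontal axis), 1 line per library. POLIIS2P peaks in the bin 50 bp upstream of starts and again 350 bp past finishes, whereas H3K27ac-named peaks in the bin 50 bp downstream of starts and has no comparable peak at finishes.

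Of the 2 kinds of gene end, starts carried H3K27ac more often than finishes, and POLIIS2P was found at both. A strongest summit lay within 1000 bp of 26.0% and 29.4% of gene starts for H3K27ac-named and of 33.6% and 32.7% for POLIIS2P. At gene finishes the shares were 3.21% and 3.16% for H3K27ac-named and 12.3% and 12.2% for POLIIS2P, a ratio of means of 3.83. Restricted to genes over 4000 bp with no other gene's end within 2000 bp, finishes carried H3K27ac-named in 1.82% and 1.87% and POLIIS2P in 8.16% and 8.47%, a ratio of 4.51. At starts and at finishes the exact permutation test gave p = 0.333, the smallest possible. The 4 H3K27ac libraries of shHNRNPU cells marked 22.7% to 26.9% of starts and 2.72% to 3.30% of finishes. The pair titled H3K27ac marked 5.01% to 5.45% of starts and 2.66% to 2.76% of finishes.

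An end was called acetylated when both H3K27ac-named lists had a strongest summit within 1000 bp. This was so for 4544 ends of 4427 genes, or 11.3% of all ends. Of them 3546 were starts (22.4% of all starts), 299 were finishes (1.89% of all finishes) and the rest belonged to genes of unknown strand. POLIIS2P, called in the same way, was at 18.1% of all ends, at 28.2% of starts and at 9.96% of finishes.

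Most acetylated ends also carried POLIIS2P. Both POLIIS2P libraries had a strongest summit at 3112 of the 4544 ends (68.5%), 1 library did at 632 (13.9%) and neither did at 800 (17.6%). In the 4 pairs of single libraries the share with POLIIS2P ran from 69.1% to 71.7%. Over all gene ends, 75% had no strongest POLIIS2P summit in either library. For 124 acetylated ends (2.73%) neither POLIIS2P list held any summit at all, strong or weak, against 53.3% of all ends. From the 4 H3K27ac libraries of shHNRNPU cells, 2940 ends were acetylated, 74.9% with POLIIS2P and 12.5% without. With the pair titled H3K27ac, 1116 ends were, 49.8% with and 39.0% without.

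POLIIS2P was more frequent where H3K27ac ranked higher. When acetylated starts were put in 4 equal groups by their mean H3K27ac-named percentile, POLIIS2P was present in both libraries at 54.5% of the lowest group, then at 65.5%, 73.3% and 82.5% of the highest. Starts without POLIIS2P fell from 26.5% through 19.1% and 13.8% to 7.78%. The median H3K27ac-named percentile was 93.3 and 96.2 (repeats 1 and 2) at acetylated ends with POLIIS2P, and 87.0 and 92.4 at those without. These shares describe ends, which are not replicates of a condition.

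Promoter sequences of a few starts described in the text are shown for both classes. They were picked for those genes and are no sample of a class: TATAAA stands in 3 of the 7 shown without POLIIS2P, against 8.98% of that class in the longer windows searched next. Each is the 120 bases before the annotated start in RefSeq GRCh38.p14, read 5′ to 3′ on the gene's strand. Capitals mark 3 short motifs on either strand: the TATA box (TATAAA), the CCAAT box (CCAAT) and the GC box core (GGGCGG). Overlapping matches run together. DNAJC9 (chr10:73247256-73247375, minus strand), SOD2 (chr6:159762282-159762401, minus), GPX1 (chr3:49358354-49358473, minus) and UTP18 (chr17:51260426-51260545, plus) had H3K27ac and POLIIS2P at the top of all 4 lists. GPATCH2 (chr1:217631091-217631210, minus), RPL19 (chr17:39200163-39200282, plus), PTCHD4 (chr6:48111198-48111317, minus), CRADD (chr12:93677255-93677374, plus), H3C7 (chr6:26250636-26250755, minus), FOS (chr14:75278708-75278827, plus) and H1-4 (chr6:26156209-26156328, plus) had H3K27ac and no deposited POLIIS2P summit at the start.
DNAJC9: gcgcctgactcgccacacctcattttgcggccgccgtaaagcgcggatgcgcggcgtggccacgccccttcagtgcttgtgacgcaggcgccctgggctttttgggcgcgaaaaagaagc
SOD2: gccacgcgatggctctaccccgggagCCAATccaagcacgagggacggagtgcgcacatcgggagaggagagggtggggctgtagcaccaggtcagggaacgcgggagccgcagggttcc
GPX1: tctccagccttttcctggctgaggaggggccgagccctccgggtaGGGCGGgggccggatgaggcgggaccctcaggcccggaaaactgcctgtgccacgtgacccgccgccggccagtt
UTP18: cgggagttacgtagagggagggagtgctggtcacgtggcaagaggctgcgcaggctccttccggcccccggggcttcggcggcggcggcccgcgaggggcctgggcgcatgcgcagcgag
GPATCH2: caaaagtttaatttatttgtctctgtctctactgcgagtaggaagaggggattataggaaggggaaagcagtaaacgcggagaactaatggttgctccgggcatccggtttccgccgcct
RPL19: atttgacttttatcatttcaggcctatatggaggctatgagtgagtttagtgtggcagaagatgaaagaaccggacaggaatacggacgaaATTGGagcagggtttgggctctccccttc
PTCHD4: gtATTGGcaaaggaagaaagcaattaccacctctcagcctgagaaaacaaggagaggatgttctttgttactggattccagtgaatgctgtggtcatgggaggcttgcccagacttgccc
CRADD: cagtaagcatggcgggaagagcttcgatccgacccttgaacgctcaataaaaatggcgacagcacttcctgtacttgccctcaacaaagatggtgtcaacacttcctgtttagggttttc
H3C7: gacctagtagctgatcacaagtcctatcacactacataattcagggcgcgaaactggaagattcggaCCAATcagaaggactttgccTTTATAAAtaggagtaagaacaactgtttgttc
FOS: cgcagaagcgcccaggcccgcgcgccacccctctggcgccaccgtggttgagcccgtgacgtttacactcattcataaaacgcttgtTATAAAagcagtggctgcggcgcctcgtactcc
H1-4: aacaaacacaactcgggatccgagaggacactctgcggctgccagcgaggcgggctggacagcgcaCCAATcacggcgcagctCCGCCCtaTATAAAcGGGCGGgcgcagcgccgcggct

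Over the whole classes, promoters with both marks held fewer TATAAA runs and more GGGCGG runs than promoters with H3K27ac and no strongest POLIIS2P summit. Most starts of the latter class had a weaker POLIIS2P summit, 469 and 442 of 595 in repeats 1 and 2. The search covered 300 bases, 250 before to 50 after the start, on both strands, for 14269 starts whose promoter sequence could be matched. TATAAA was in 4.13% of 2326 promoters with H3K27ac and POLIIS2P, in 8.98% of 557 with H3K27ac without POLIIS2P and in 9.85% of all. GGGCGG, the core of a GC box, was in 72.4%, 57.8% and 58.8%. CCAAT was in 43.9%, 33.6% and 36.9%. CGGAAG, the core of sites bound by ETS factors, was in 42.9% and 37.7% of the acetylated classes and in 26.3% of all. Median GC content was 64.3% with both marks, 62% with H3K27ac without POLIIS2P and 62.7% over all. Starts with POLIIS2P without H3K27ac had the highest median GC content of the classes, 67.7%, and GGGCGG in 79.7%. A match says only that these letters are present in the window.

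Among the 10 ends with the highest mean percentile over all 4 libraries were several shared by neighbouring genes. The start of DNAJC9, which encodes a histone co-chaperone of the DNAJ family, stood at percentiles 99.4 and 99.8 for H3K27ac-named and 99.9 and 99.95 for POLIIS2P. SOD2, the mitochondrial superoxide dismutase, shares its start region with ACAT2, an enzyme that joins acetyl-CoA units, and both ends were at 99.6 and 99.7 for H3K27ac-named and at 99.9 for POLIIS2P in both repeats. MBTD1 and UTP18, the latter a factor for ribosomal RNA processing, also share a start region, at 99.9 and 99.96 for H3K27ac-named and 99.6 and 99.3 for POLIIS2P. FBXO22 (an F-box protein of ubiquitin ligases), CASC3 (a component of the exon junction complex) and GPX1 (glutathione peroxidase 1) stood at 99.3 or higher in all 4 libraries. GPX1's summits lay also within the window of the finish of RHOA. RCC2 was in this group through its finish, with 99.4 and 98.9 for H3K27ac-named and 99.96 and 99.97 for POLIIS2P. Another gene's end lay within 1000 bp of 38.3% of acetylated starts with POLIIS2P, 18.3% of those without and 19.8% of all starts.

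Among acetylated ends with no deposited POLIIS2P summit, the strongest H3K27ac was at genes of several kinds. GPATCH2 and SPATA17, which share a start region, stood at 99.7 and 99.4 for H3K27ac-named. ATXN7L3B was at 99.3 and 99.2, PTCHD4 at 98.7 and 99.1 and SLCO1A2, a transporter of organic anions, at 98.2 and 97.1. RPL19, a protein of the large ribosomal subunit, was at 97.8 and 99.3 at its start, and POLIIS2P stood at its finish, at 78.8 and 83.5. H3C7, a histone H3 gene of 494 bp whose ends share a window, was at 97.2 and 97.3. CRADD, an adaptor of cell death signalling, was at 98.9 and 95.1. HEXIM2, a paralogue of the inhibitor of the elongation kinase P-TEFb, was at 94.0 and 99.2. All 4 H3K27ac libraries of shHNRNPU cells had a strongest summit at each of these ends, and the POLIIS2P library of shHNRNPU#1 cells had none at any of them.

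**Figure D2:**
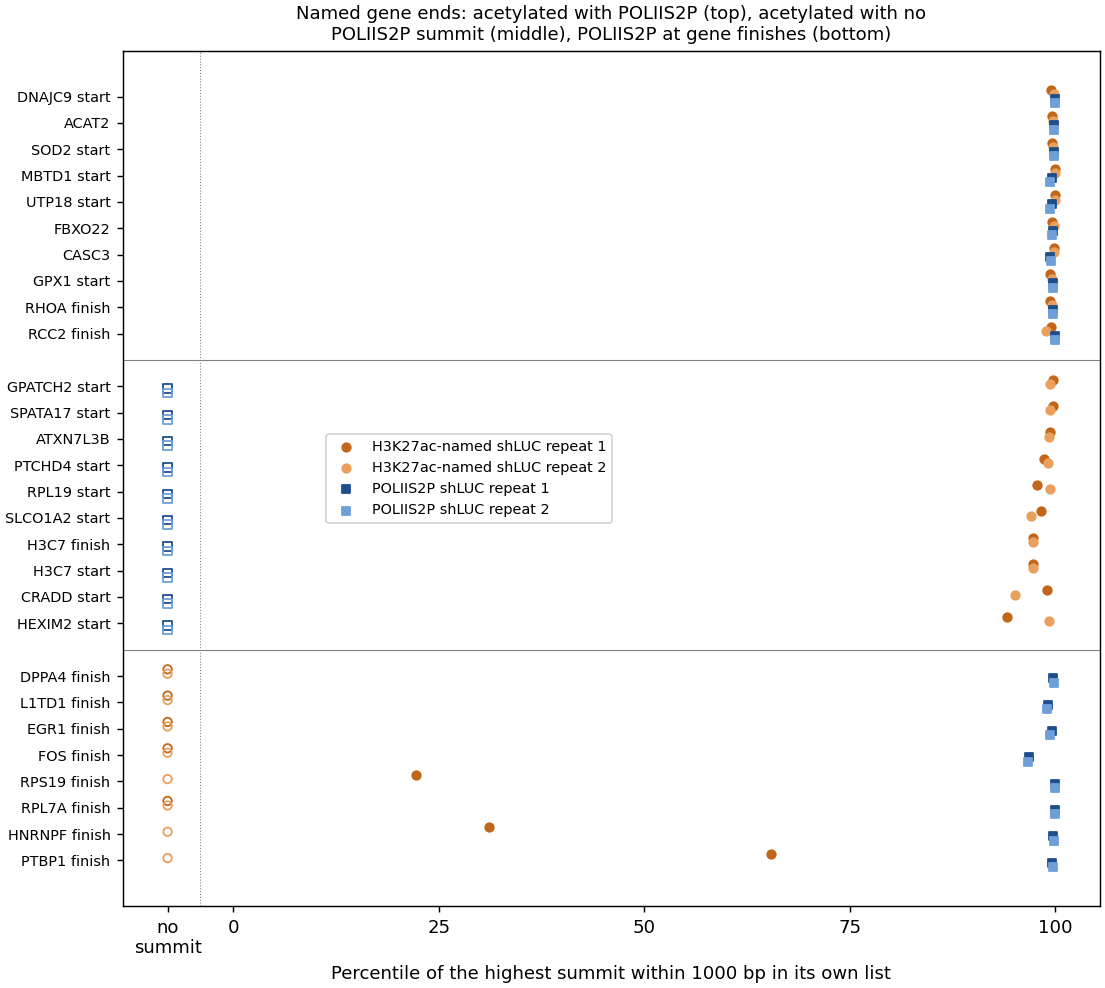
Percentile of the highest summit within 1000 bp of a named gene end in its own list (horizontal axis, 0 to 100), 1 point per library, with open symbols at the left where the list holds no summit there. Top, the 10 highest-ranked acetylated ends with POLIIS2P. Middle, the 10 highest-ranked acetylated ends with no deposited POLIIS2P summit. Bottom, 8 gene finishes named in the text, where both POLIIS2P libraries stand above 96 and H3K27ac is weak or has no summit.

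Libraries that took no part in choosing the classes differed between them to unequal degrees. HNRNPU, a nuclear RNA-binding protein mapped in untransfected cells, had a strongest summit at 97.2% and 96.2% (repeats 1 and 2) of the 2444 acetylated starts with POLIIS2P. It was at 66.6% and 66.7% of the 595 without POLIIS2P, at 33.0% and 40.9% of the 88 with no deposited POLIIS2P summit, and at 46.1% and 45.7% of all starts. The 95% Wilson intervals for the 88, which form 82 loci, were 24.03% to 43.3% and 31.2% to 51.4%. They cover counting error only, and starts are not replicates, so they do not test a difference from all starts. Starts with POLIIS2P without H3K27ac, 1255 in number, had HNRNPU in 72.6% and 73.0%. Among acetylated starts with a mean H3K27ac-named percentile of at least 95, HNRNPU was at 98.9% and 97.8% of 1139 with POLIIS2P and at 72.3% and 68.5% of 130 without. With the pair titled H3K27ac, HNRNPU was at 91.6% and 93.4% of 273 starts with POLIIS2P and at 39.6% and 40.9% of 225 without. With the 4 H3K27ac libraries of shHNRNPU cells it was at 97.9% and 97.2% against 72.4% and 67.6%.

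The single POLIIS2P library of shHNRNPU#1 cells had a strongest summit at 94.3% of the acetylated starts with POLIIS2P (95% Wilson interval 93.3% to 95.1%) and at 21.8% of those without (18.7% to 25.3%), against 35.1% of all starts. It marked 3.41% of the 88 with no deposited POLIIS2P summit (1.17% to 9.55%). The intervals cover counting error only. The 4 H3K27ac libraries of shHNRNPU cells marked 82.3% to 89.2% of acetylated starts with POLIIS2P and 64.4% to 75.8% of those without. At a mean H3K27ac-named percentile of at least 95 these shares were 97.8% to 99.4% and 93.1% to 97.7%. The classes were not matched for rank among these starts, and the shares of both lay near the ceiling. Whether rank accounts for the smaller gap was therefore not tested. Among the same starts, POLIIS2P of shHNRNPU#1 cells was at 94.8% and 24.6%. The H3K4me1-named pair marked few starts of any class, 11.8% and 10.5% of those with POLIIS2P, 8.40% and 7.39% of those without and 5.45% and 5.01% of all. These comparisons rest on 1 to 4 libraries per antibody. No test was run between classes of ends within a library.

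**Figure D3:**
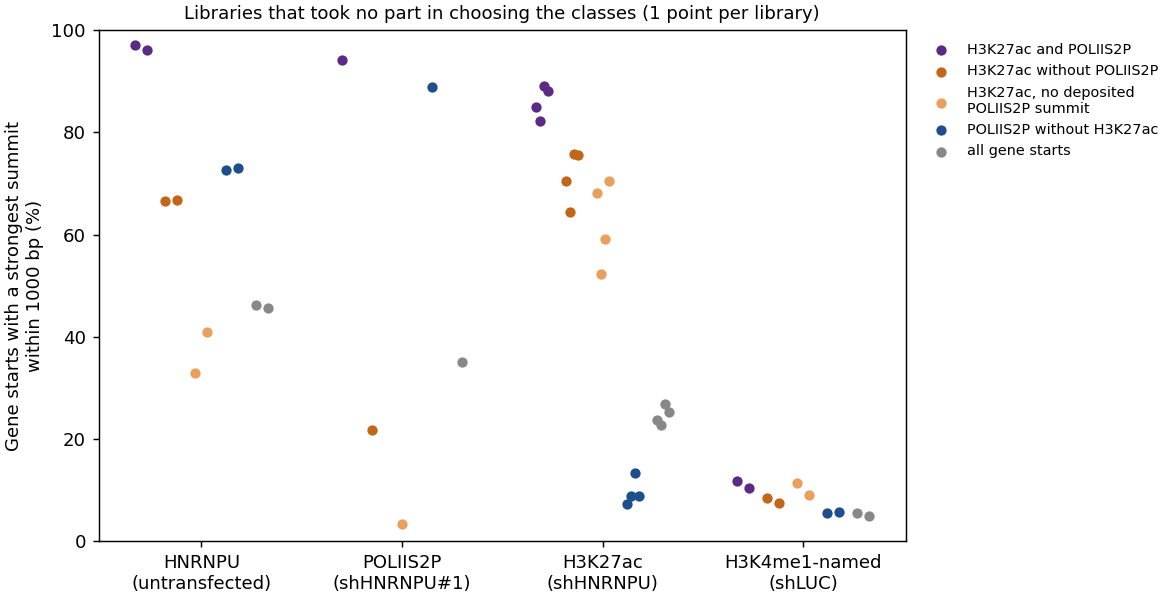
Share of gene starts with a strongest summit within 1000 bp (vertical axis, %) in libraries that were not used to choose the classes (horizontal axis), 1 point per library and class. HNRNPU lies at 97.2% and 96.2% of starts with H3K27ac and POLIIS2P, at 66.6% and 66.7% with H3K27ac without POLIIS2P and at 33.0% and 40.9% where both POLIIS2P lists lack a summit.

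The state of the start was compared with POLIIS2P at the finish of the same gene. Finishes carried POLIIS2P in 18.4% and 19.03% (repeats 1 and 2) of genes whose start was acetylated with POLIIS2P. The shares were 12.8% and 12.1% where the start was acetylated without POLIIS2P, 23.8% and 24.4% where it had POLIIS2P without H3K27ac, and 7.46% and 7.38% where it had neither. In the POLIIS2P library of shHNRNPU#1 cells the values were 18.2%, 12.9%, 22.5% and 6.82% in the same order. For genes over 4000 bp with no other gene's end within 2000 bp of the finish, they were 13.7% and 15.1%, 10.8% and 9.25%, 13.6% and 16.0%, and 5.01% and 5.09%. In both repeats, genes with an acetylated start and no strongest POLIIS2P summit there had POLIIS2P at the finish more often than genes with neither. Over all finishes the shares were 12.3% and 12.2%, close to those of these genes, and 8.16% and 8.47% with the same restriction on length and neighbours.

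POLIIS2P was at 3020 ends with no strongest H3K27ac-named summit, 1255 starts and 1186 finishes among them. Neither H3K27ac-named list held any summit at 1378 of them, of which 396 were starts and 692 were finishes. Finishes with the highest POLIIS2P included ribosomal protein and stem cell genes, described next by gene list.

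Gene lists were counted by genes with at least 1 acetylated end, at background shares of 22.1% of all genes acetylated, 15.2% acetylated with POLIIS2P, 31.7% with POLIIS2P at an end and 12.3% with a gene-body POLIIS2P site without H3K27ac. Of 4427 acetylated genes, 753 (17.01%) had an acetylated end without POLIIS2P and none with it. The counts for lists describe these genes and were not tested as sets.

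Cytosolic ribosomal protein genes were acetylated in 63 of 83 cases, 38 with POLIIS2P and 16 without. Their finishes carried POLIIS2P in 27 of 65 (41.5%, against 9.96% of all). RPL7A had no POLIIS2P summit at its start and 99.9 in both repeats at its finish, where both H3K27ac-named lists lack a summit. RPS19 had 99.9 and 99.9 at its finish and 91.2 and 91.1 at its start. RPL4 had H3K27ac-named at 97.7 and 99.1 at its start with POLIIS2P at 46.7 and 66.5, and POLIIS2P at 99.9 in both repeats at its finish, which was acetylated too, at 97.6 and 96.1. RPL27A, RPL32 and RPS23 likewise had H3K27ac-named above 99 at the start and POLIIS2P there at 62.2 or lower or with no summit. Using the 4 H3K27ac libraries of shHNRNPU cells, 57 of the 83 were acetylated, 35 with POLIIS2P and 13 without. With the pair titled H3K27ac, 3 were. Many of these genes have near-identical processed pseudogenes, so the placement of reads within them is uncertain.

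Replication-dependent histone genes, which encode the histones made in S phase, showed the opposite balance. Of 69 genes 28 were acetylated, 7 of them with POLIIS2P and 17 without. These 17 made up 60.7% of the acetylated genes of the list, against 17.01% of all acetylated genes. Without means no strongest POLIIS2P summit in either library, and some of the 17 had a weaker one. H3C7 had H3K27ac-named at 97.2 and 97.3 and no POLIIS2P summit. H4C13 had 97.0 and 95.6 with POLIIS2P absent in repeat 1 and at 10.6 in repeat 2. H2AC15 had 93.9 and 98.3 with POLIIS2P at 55.2 and 51.0. H2AC11 and H2BC11 share their windows and had POLIIS2P at 94.5 and 83.8. H1-4, which encodes a linker histone, had H3K27ac-named at 95.3 and 95.9, no POLIIS2P summit at its start and POLIIS2P at 83.0 and 78.9 at its finish. The gene is 787 bp long. From the 4 H3K27ac libraries of shHNRNPU cells 22 were acetylated, 7 with POLIIS2P and 11 without, and with the pair titled H3K27ac 1 was. In this list 61 of 69 genes are under 1000 bp, so both ends fall in 1 window, and the genes lie in clusters of near-identical copies.

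Splicing factors and hnRNPs, proteins that bind and process nascent RNA, had H3K27ac and POLIIS2P together. Of 53 genes 33 were acetylated, 27 with POLIIS2P and 1 (SF3B2) without. HNRNPD had 98.8 and 99.7 for H3K27ac-named and 99.6 and 99.5 for POLIIS2P at its start. Finishes carried POLIIS2P in 19 of 47 genes (40.4%). HNRNPF had POLIIS2P at 99.7 and 99.8 at its finish and 95.9 and 94.8 at its start. PTBP1 had 99.6 and 99.7 at its finish and 80.1 and 88.2 at its start. In this list 17 of 53 genes (32.1%) held a gene-body POLIIS2P site without H3K27ac. With the 4 H3K27ac libraries of shHNRNPU cells, 29 were acetylated, 23 with POLIIS2P and 0 without. With the pair titled H3K27ac, 0 were.

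Zinc finger genes of chromosome 19, most of which encode KRAB repressors of transposable elements, carried POLIIS2P at an end in 143 of 240 (59.6%). Of the 90 that were acetylated, 80 had POLIIS2P and 5 did not. ZNF91 had 99.4 and 99.2 for H3K27ac-named and 99.6 and 99.5 for POLIIS2P at its start, and ZNF433 had POLIIS2P at 99.7 in both repeats at a start with H3K27ac-named absent in repeat 1 and at 57.8 in repeat 2. Their finishes carried POLIIS2P in 11 of 210 (5.24%), below the share over all finishes. Mitochondrial ribosomal protein genes were acetylated in 46 of 77, 31 with POLIIS2P and 3 without. Oxidative phosphorylation genes were acetylated in 36 of 82, 23 with and 8 without, among the latter UQCRH at 96.1 and 98.5 and COX7C at 93.2 and 95.1 for H3K27ac-named. Of 31 transcription elongation genes 18 were acetylated, 14 with POLIIS2P and 2 without, among them SUPT5H at 90.8 and 93.5 for H3K27ac-named. AFF4, a scaffold of the super elongation complex, had 99.96 and 99.94 for H3K27ac-named and 97.4 and 97.3 for POLIIS2P. The 4 H3K27ac libraries of shHNRNPU cells gave, for zinc finger genes, 63 acetylated (54 with POLIIS2P, 5 without). They gave 32 (22, 2) for mitochondrial ribosomal, 27 (18, 5) for oxidative phosphorylation and 11 (9, 0) for elongation genes. The pair titled H3K27ac gave 9 (8, 0), 2 (0, 0), 5 (4, 0) and 0 in the same order.

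Immediate early genes, which are induced within minutes of stimulation, had POLIIS2P at the finish in 7 of 14 (50%), and in 2 of 6 finishes of genes over 4000 bp with no other gene's end nearby. Of the 18 genes 4 were acetylated, 2 with POLIIS2P (JUND and DUSP1) and 2 without (FOS and KLF6). KLF6 had POLIIS2P at 69.8 and 75.7 at its start, below the limits of 77.1 and 76.6, and at 95.6 and 93.8 at its finish. A strongest summit stood at the KLF6 start in the POLIIS2P library of shHNRNPU#1 cells. FOS had H3K27ac-named at 96.1 and 95.5 at its start with no POLIIS2P summit there, and POLIIS2P at 96.8 and 96.6 at its finish with no H3K27ac summit there. The POLIIS2P library of shHNRNPU#1 cells had a strongest summit at that start. The gene is 3403 bp long, so its ends do not share a window. EGR1 had POLIIS2P at 99.5 and 99.3 at its finish and 63.4 and 44.0 at its start. In the 4 H3K27ac libraries of shHNRNPU cells 4 of these genes were acetylated (2 with POLIIS2P, 2 without), and in the pair titled H3K27ac 3 were (2, 1). IER2 had 96.6 and 96.7 at its finish, and at its start no summit in repeat 1 and 8.69 in repeat 2.

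Pluripotency genes were acetylated in 6 of 19, 5 with POLIIS2P and 1, FGF2, without. L1TD1, an RNA-binding protein of pluripotent cells, had 99.8 and 99.9 for H3K27ac-named and 91.0 and 91.5 for POLIIS2P at its start, and POLIIS2P at 99.1 and 98.9 at its finish. DPPA4 had no summit of either antibody at its start and POLIIS2P at 99.8 in both repeats at its finish. ZFP42 had 95.5 and 97.7 for H3K27ac-named and 81.1 and 91.4 for POLIIS2P at its start. A gene-body POLIIS2P site without H3K27ac was present in 8 of 19 (42.1%). Lineage regulators (0 of 24) and HOX genes (0 of 39) had no acetylated end. POLIIS2P was at a start of 2 lineage regulators, MIXL1 at 86.4 and 91.4 and PAX7 at 77.9 and 79.3, and 2 of the 24 held a gene-body site without H3K27ac. No HOX gene had either. Olfactory receptor genes had an acetylated end in 1 of 390 (OR10S1), without POLIIS2P, and 0 had POLIIS2P at an end or such a gene-body site. Of 22 tissue-restricted genes 1, TNNT2, was acetylated, with POLIIS2P. Genes at least 500000 bp long were acetylated in 42 of 315, 19 with POLIIS2P and 10 without, and their finishes carried POLIIS2P in 4 of 263 (1.52%). The 4 H3K27ac libraries of shHNRNPU cells gave 3 acetylated pluripotency genes (2 with POLIIS2P, 1 without) and 25 very long genes (16, 4). The pair titled H3K27ac gave 2 (1, 1) and 19 (3, 14), and also 1 lineage regulator without POLIIS2P.

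**Figure D4:**
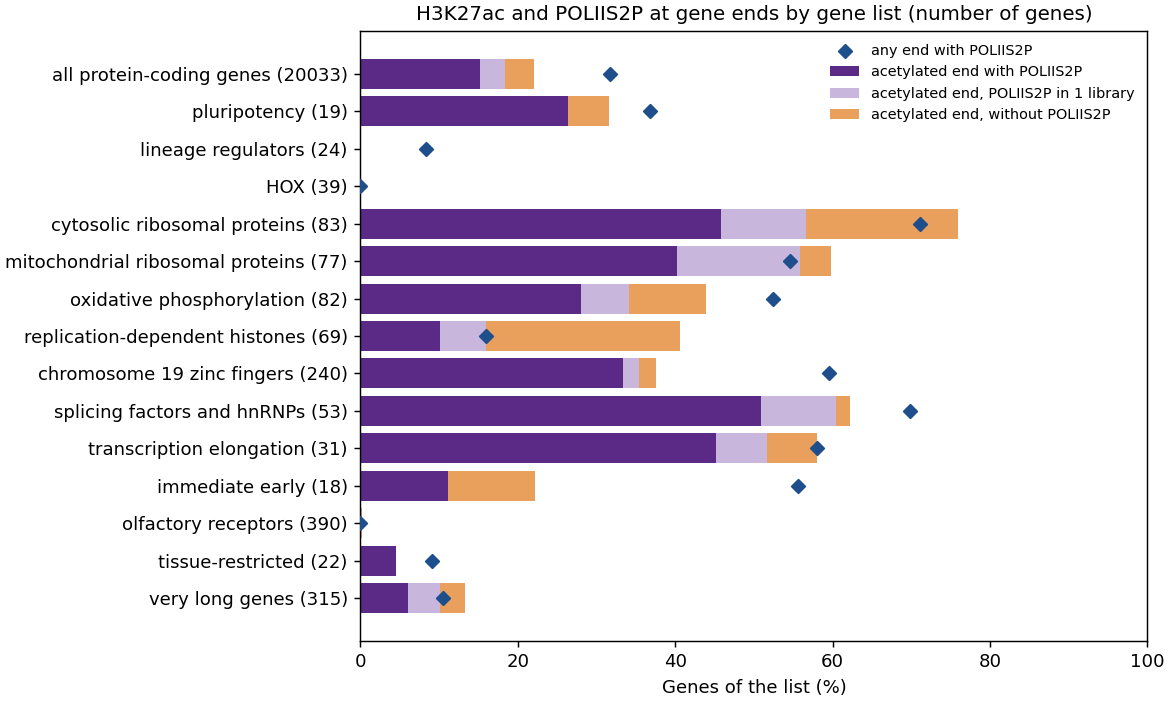
Share of the genes in each list (horizontal axis, %) with an acetylated end, split by POLIIS2P at that end (bars), and with POLIIS2P at any end (diamonds). Replication-dependent histone genes have the largest part without POLIIS2P, 17 of 28 acetylated genes, among lists with over 5 acetylated genes, and zinc finger genes of chromosome 19 have POLIIS2P at an end in 59.6%.

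POLIIS2P inside genes was then set against H3K27ac at the same places. Gene bodies took a slightly larger share of H3K27ac-named than of POLIIS2P summits, as given above. A POLIIS2P site was a strongest summit of repeat 1 with a strongest summit of repeat 2 within 250 bp, and 14300 such sites were found. Of these 5675 (39.7%) lay at gene ends, 6120 (42.8%) in gene bodies, meaning inside a protein-coding gene and over 1000 bp from every gene end, and 2505 (17.5%) between genes. Requiring a single library gave 9193 gene-body summits for repeat 1 (without repeat 2) and 9273 for repeat 2 (without repeat 1).

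Gene-body sites were with and without H3K27ac in similar numbers only if a summit in either library counted as H3K27ac. Sites with it in both libraries were fewer than sites without it. Of the 6120 sites, 3440 (56.2%) in 2460 genes had no strongest H3K27ac-named summit of either repeat within 1000 bp, 1653 had a summit of both and 1027 of 1. At 1713 sites (27.99%) neither H3K27ac-named list held any summit within that distance. The share without H3K27ac was 52.7% over all POLIIS2P sites, 41.9% at gene ends and 68.5% between genes, so gene bodies stood between ends and intergenic regions and close to the share over all sites. The share fell to 44.7% when all deposited summits were used and to 46.4% when H3K27ac was sought within 5000 bp. Using the 4 H3K27ac libraries of shHNRNPU cells it was 49.3%, and with the pair titled H3K27ac 65.7%. Against a single H3K27ac-named library it was 63.4% and 65.8%.

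Sites without H3K27ac lay further along the gene. Among sites in genes of known strand, 35.8% of 2750 without H3K27ac lay in the last 25% of the gene and 16.4% in the first 25%. Of 1366 with H3K27ac in both libraries, 25.8% lay in the last 25% and 24.3% in the first. The median position was 63.1% and 51.6% of the way from start to finish. Over all 4952 gene-body sites with known strand, 32.4% lay in the last 25% and 19.2% in the first, with a median position of 58.9%. In the 4 pairs of single libraries the share in the last 25% ran from 33.6% to 35.0% without H3K27ac and from 26.7% to 27.9% with it. These pairs share libraries and are not independent of each other. From the 4 H3K27ac libraries of shHNRNPU cells the shares were 37.6% and 25.9%, and with the pair titled H3K27ac they were 34.6% and 28.3%. An annotated transcript start in the promoter table lay within 1000 bp of 7.67% of sites without H3K27ac and of 18.996% of sites with it. The host genes had a median length of 56352 bp and 84630 bp. The start of the host gene was acetylated for 30.1% and 31.2%. Small RNA genes lay within 500 bp of 26 of the 3440 sites (0.756%).

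Other libraries also differed between these sites. HNRNPU was at 25.2% and 25.3% of gene-body sites without H3K27ac and at 65.5% and 64.4% of those with it in both libraries. The H3K4me1-named pair was at 19.7% and 19.4% against 48.9% and 49.2%. The 4 H3K27ac libraries of shHNRNPU cells were at 7.91% to 8.63% against 76.5% to 83.4%. POLIIS2P of shHNRNPU#1 cells was at 76.6% (95% Wilson interval 75.2% to 78.0%) against 87.6% (85.9% to 89.1%). The intervals cover counting error only in a single library. Sites are not replicates and some share a gene, so the intervals do not test a difference. POLIIS2P itself ranked lower at sites without H3K27ac, with a median percentile of 88.3 against 91.9.

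**Figure D5:**
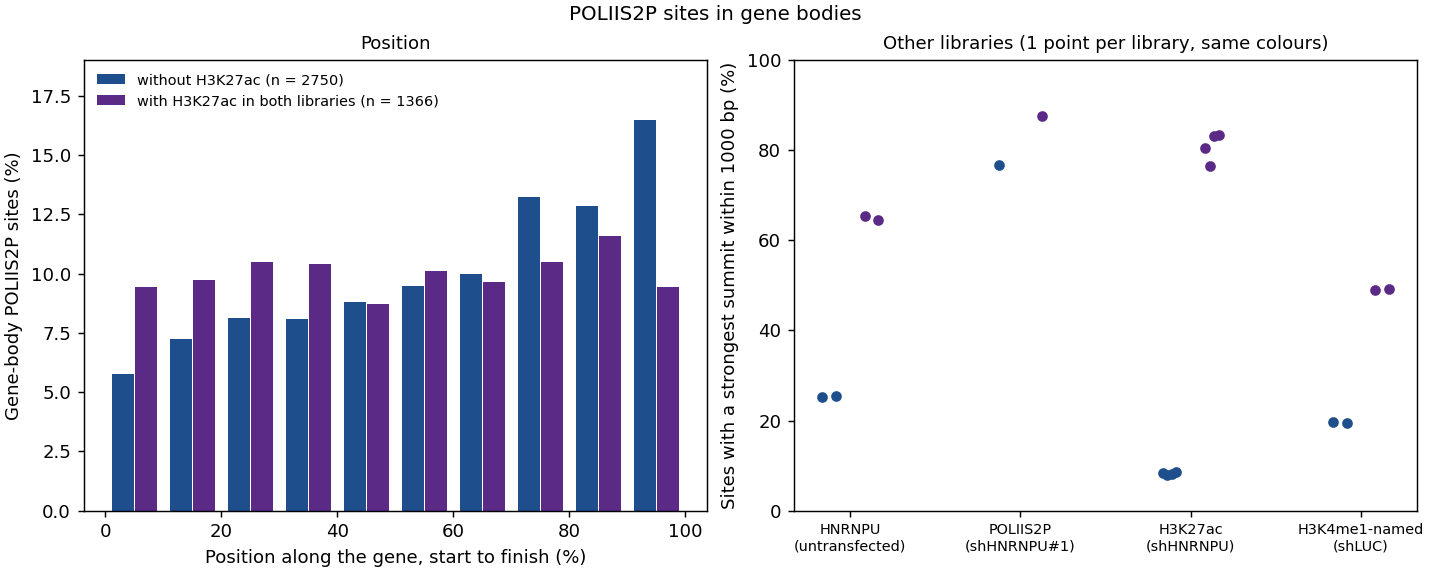
Left, share of gene-body POLIIS2P sites (vertical axis, %) by position along the gene from start to finish (horizontal axis, bins of 10%), for sites without H3K27ac and with H3K27ac in both libraries. Right, share of the same sites with a strongest summit of other libraries within 1000 bp, 1 point per library. Sites without H3K27ac gather toward the finish, and HNRNPU lies at 25.2% and 25.3% of them against 65.5% and 64.4%.

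The highest gene-body sites with no deposited H3K27ac summit within 1000 bp did not gather at 1 place. Of the 10 highest, 5 of the 6 in genes of known strand lay in the last 25% of the gene, but of the 20 highest 6 of 12 did, and over all 1713 such sites the share was 38.2% of those with known strand. DDX3X, NSMF and RALGDS held sites 55.7%, 45.9% and 54.3% along, and the RALGDS site was 20 bp from an annotated transcript start. The highest was in GGCX, the gamma-glutamyl carboxylase of vitamin K-dependent proteins, at chr2:85546406, 89.9% along the gene, with POLIIS2P at 99.9 and 99.8. TECR, an enzyme of very long chain fatty acid synthesis, held a site at chr19:14564562, 96.3% along, at 99.9 and 99.7. FBRSL1 held a site at chr12:132582303, 97.0% along, at 99.8 and 99.7. Sites in ARHGAP23 and PKD1, the polycystin gene, lay 97.7% and 94.8% along. The PKD1 site was 262 bp from an annotated transcript start, and a small RNA gene lay within 500 bp of the FBRSL1 site. The site in RCC1, the exchange factor of the GTPase Ran, lay 28.2% along. SPAG4, SLC29A2 (a nucleoside transporter), IRF7 (an interferon regulatory factor) and HNRNPA1 held the other sites, and their strand was not known. HNRNPA1 had POLIIS2P at 99.5 and 99.7 in its body, at 96.9 and 96.5 at the end with H3K27ac-named at 94.4 and 96.5, and at 98.8 and 97.3 at the end without H3K27ac. All 10 sites had a strongest summit in the POLIIS2P library of shHNRNPU#1 cells. Both HNRNPU libraries had one at the sites in GGCX, SPAG4, SLC29A2, FBRSL1, IRF7, ARHGAP23 and PKD1. At the TECR site 1 HNRNPU library did, and at the HNRNPA1 and RCC1 sites neither did. Over all 1713 such sites HNRNPU repeats 1 and 2 were at 18.6% and 17.5%.

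Sites without H3K27ac were spread over many genes. Of the 2460 genes 1876 held 1 site and 38 held 5 or more, and the 10 genes with the most held 114 sites (3.31%). JARID2, a cofactor of the Polycomb complex PRC2, held 16, all of its gene-body sites, and its start had H3K27ac-named at 68.8 and 91.2 and POLIIS2P at 91.1 and 86.3. DNMT3B, the de novo DNA methyltransferase of pluripotent cells, held 10 of 14 within 32644 bp, with a median percentile of 93.5, and POLIIS2P of shHNRNPU#1 cells was at all 10. ADGRL3, an adhesion receptor known from neurons and 878010 bp long, held 9 within 42233 bp, and none of them had a deposited H3K27ac summit. ARHGEF10 held 11, TRIM24 held 10, and SEMA6A, CTBP2, VASH2 and PHF21B held 8 each.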

How the data were processed

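CUT&Tag libraries of H1 cells were analysed from 1 summit list per library. According to the submitters' processing notes the authors used cutadapt, Bowtie2, SAMtools, MACS2 and deepTools with hg38; their order, parameters and control libraries are not given in the sources used here. The paper listed with the series describes mouse cells, and no method was taken from it. The deposited score of each summit was read as −log10 of a p-value or q-value; the lowest was about 2.00 for the 12 histone libraries but 1.30 for POLIIS2P and HNRNPU, so the antibodies were called at different thresholds. A list of intervals for both HNRNPU repeats together was not used. The labels name no batch, and antibody and calling threshold cannot be told apart. Nothing ties repeat 1 of one antibody to repeat 1 of the other.

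The 20000 highest summits per list were used, with ties at the limit ordered by chromosome and position. Gene spans came from the RefSeq table for GRCh38.p14, and strand and promoter sequence from the RefSeq promoter table: 15841 of 20033 genes had a strand and 4192 had none. No genome was used. Named genes were the 10 highest by mean percentile in each class, the 10 genes with most gene-body sites and up to 4 per list and class. Some items that the rule names are not reported here. Some further list members and both ends of some genes were named after their values were seen. Members, lists and rules were chosen with earlier results of these data known. Libraries were compared by exact two-sided permutation tests, and shares of single libraries have Wilson 95% intervals. Functions were tested on simulated lists with planted sites. Python 3.11.15, numpy 2.4.6, pandas 2.3.3, scipy 1.17.1 and matplotlib 3.10.9 were used. Alternatives covered the number of summits, window, distances, replicates required, each library left out, and other H3K27ac libraries.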

Additional observations from a re-analysis of the deposited data

How the results depend on the processing

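The difference in gene-end share between H3K27ac-named and POLIIS2P kept its sign under every alternative, from -4.99 points with all deposited summits to -28.9 with the pair titled H3K27ac, and leaving out 1 library gave -12.9 to -10.5. No signed difference reversed, but 2 majorities did not hold under every alternative. The share of acetylated ends with POLIIS2P was 49.8% with the pair titled H3K27ac, whose summits overlapped the H3K4me1 libraries of shHNRNPU cells more than the H3K27ac ones. With the 4 H3K27ac libraries of shHNRNPU cells this share was 74.9%. The share of gene-body sites without H3K27ac was 44.7%, 46.4% and 49.3% under settings given below. The counts and shares moved with how many summits were used. With the 10000 highest summits there were 2949 acetylated ends (50.9% with POLIIS2P, 33.7% without) and 2835 gene-body sites (63.6% without H3K27ac), and the overlap and median distance were 26.3% and 84.5 bp. With all deposited summits the values were 8736 (84.7%, 7.59%), 30272 (44.7%), 31.4% and 104 bp. Counting a summit of either replicate gave 7101 (74.5%, 25.5%) and 12344 (64.5%). With the 4 H3K27ac libraries of shHNRNPU cells the values were 2940 (74.9%, 12.5%), 49.3% of gene-body sites, 27.4% and 80.4 bp, and with the pair titled H3K27ac they were 1116 (49.8%, 39.0%), 65.7%, 18.0% and 44.6 bp. Overlap was 20.6% at 100 bp and 33.1% at 500 bp. A 500 bp window at gene ends gave a median distance of 84 bp, and a limit of 5000 bp to H3K27ac left 46.4% of gene-body sites without it. Leaving out 1 library gave 4544 to 6130 acetylated ends, 62.9% to 76.8% of them with POLIIS2P and 22.4% to 25.9% without, 6120 to 9273 gene-body sites, 61.5% to 65.8% of them without H3K27ac, an overlap of 28.4% to 31.0% and a median distance of 87.5 to 95 bp. A single library suffices for a call in these cases, so the counts grow by construction. The cause of the other shifts was not tested.

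With the replicate block, which takes the difference within each replicate number, the gene-end difference was -13.1 points in repeat 1 and -10.3 in repeat 2, mean -11.7, and the exact sign-flip test gave p = 0.5, the smallest that 2 pairs allow. The numbers are shared by name only, so whether they pair the samples was not decided. Keeping all summits tied at the limit, an alternative chosen after seeing the data, left every one of the 8 results within its spread or count limit, and so did a 2000 bp window at gene ends for the 7 results it touches. Read depth is unknown, so absence of a summit means that none was called. Gene ends are annotated ones and may differ from those used in H1 cells. Read placement in repeated genes is uncertain, and positions within 1000 bp do not tell overlapping genes apart.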
